A study of Mus musculus with 3 samples.

Results

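The genes described here encode the contractile apparatus of skeletal muscle and the proteins that mark a differentiated muscle fibre. They were taken as a list of 45 gene symbols, named for what the proteins do, and followed over every probe set that the platform annotation assigns to 1 of these symbols. Of the 45, 43 had such a probe set, with 58 probe sets in all, out of 12393 genes and 22690 probe sets on the array. Neb and Mybpc2 had none and were not analysed here, and 2 probe sets that the annotation gives to both Myh7 and Myh6 were left out.

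RNA came from C2C12 cells, a mouse myoblast line, in 3 samples labelled 12 h. The groups were cells transfected with DGKzeta, a diacylglycerol kinase that turns diacylglycerol into phosphatidic acid, cells transfected with EGFP, a green fluorescent protein that serves as the transfection control, and untreated cells. All 3 groups shared the growth medium with 10% fetal calf serum and the 18 h of culture that preceded transfection with FuGene. Which promoter drove the constructs, and how many cells took them up, the labels do not say. Each group had 1 array, so the differences below rest on 1 array a side, no test could be run and no p-value is printed, and the number of arrays limits the precision. The DGKzeta array is shared by both of its comparisons, and each of the 3 arrays enters 2 of the 3 comparisons, so they are not independent of each other.

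C2C12 myoblasts divide in serum-rich medium and, when serum is withdrawn, leave the cell cycle, line up, fuse and build sarcomeres. The sarcomere is the contractile unit of muscle, in which myosin thick filaments pull on actin thin filaments under the control of calcium, troponin and tropomyosin. Myogenic transcription factors of the MyoD family bind E-boxes in the promoters and enhancers of these genes, and the factors MEF2 and SRF bind further sites beside them. Desmin, several acetylcholine receptor subunits and the cardiac troponin T gene are known to be transcribed in myoblasts or early in this programme, ahead of most sarcomeric myosins.

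Most of the muscle genes gave no signal above the middle of the array. Each gene was read by its brightest probe set, that with the highest mean log2 signal, and called measured where this reached a floor of 107, the pooled median of every value on the 3 arrays. By this floor 6 of the 43 genes (14.0%) were measured on at least 1 array, against 56.4% of all 12393 genes. These were Tnnt2, Acta1, Des, Chrna1, Chrnb1 and Eno3. The other 37 genes (86.0%) lay under the floor on all 3 arrays, as did 43.6% of all genes. The count of measured genes was 5 in DGKzeta cells, 6 in EGFP cells and 6 in untreated cells, the difference being Acta1. At the level of probe sets, 51 of 58 lay under the floor on every array. A signal under the floor does not show that a transcript was absent, and in bulk RNA fewer cells of a type and less RNA per cell cannot be told apart.

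**Figure D1:**
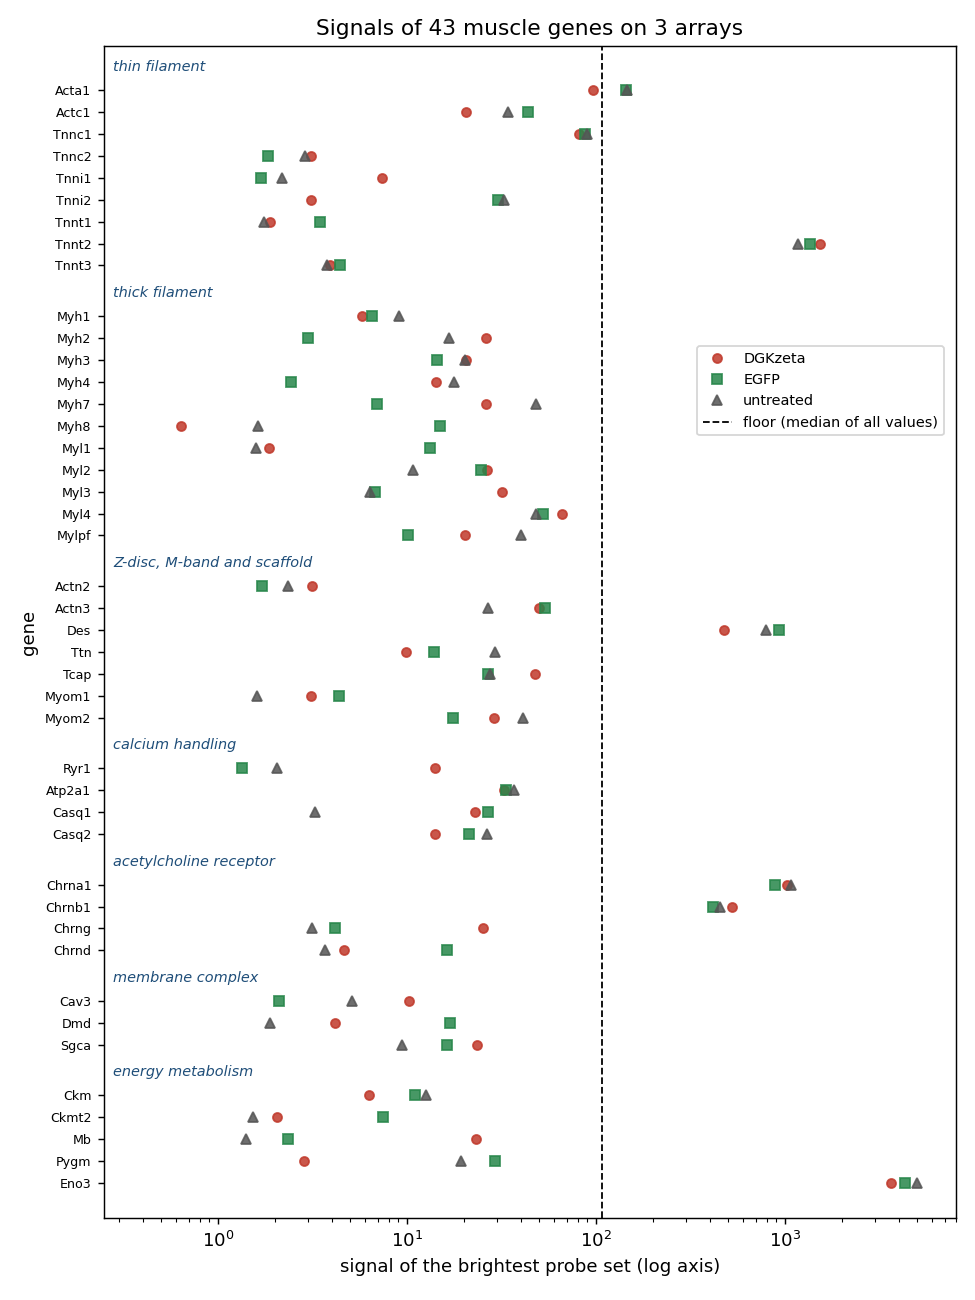
Signal of the brightest probe set (horizontal log axis) of each of 43 muscle genes (vertical axis, grouped by role) in DGKzeta, EGFP and untreated cells, 1 array each. The dashed line is the floor of 107, and 37 genes lie left of it on all 3 arrays. Signals of different probe sets are not comparable with each other.

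Most of the myoblast markers looked at were measured. Of 6 myoblast markers, 5 were measured on all 3 arrays (Myf5, Cdh15, Des, Vim and Itga7), while Myod1 lay under the floor with signals of 23.7 in DGKzeta, 26.5 in EGFP and 35.1 in untreated cells. Myog, which encodes myogenin, the factor that marks entry into differentiation, had 19.0 in DGKzeta, 8.10 in EGFP and 4.61 in untreated cells, under the floor as well. Mymk, the muscle membrane fusion gene, had 1.34, 14.0 and 1.77 in the same order, and the level of neither gene can be ordered there. The markers picked for other cell types were mostly under the floor: 0 of 3 adipocyte, 0 of 4 neuronal or glial, 1 of 4 macrophage (Csf1r, in untreated cells alone) and 1 of 4 smooth muscle markers (Smtn) were measured, and 2 of 5 fibroblast markers (Col1a1 and Col1a2). Smooth muscle genes outside those 4 were measured on all 3 arrays. By its brightest probe set Acta2 had 8802 in DGKzeta, 10762 in EGFP and 9941 in untreated cells. Its other probe set lay under the floor, with 15.9 in DGKzeta, 16.5 in EGFP and 16.3 in untreated cells. Tagln had 1363, 2152.5 and 2349, and Actg2 380, 488 and 415 in this order. The smooth muscle count thus depends on the markers picked. The summed signal of the 5 fibroblast markers was 1973 in DGKzeta, 2640 in EGFP and 3775 in untreated cells, and that of the 6 myoblast markers 23617 in DGKzeta, 27145 in EGFP and 25317 in untreated cells. Each sum mostly follows 1 gene. Col1a2 alone had 1633 in DGKzeta, 2167 in EGFP and 3375 in untreated cells, and Vim alone 20590, 24189 and 22739.5 in this order. Des is both a myoblast marker here and on the list of 45. Vim is also on the list of non-muscle and smooth muscle counterparts below, so the myoblast sum does not measure myoblasts alone. The part of other cell types in the differences below was not tested. The transfected gene Dgkz itself had a signal of 13466 in DGKzeta cells, against 1053 in EGFP and 1500.1 in untreated cells.

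The thick filament genes were under the floor throughout. All 11 with a probe set, read by 16 probe sets, had signals between 0.511 and 66.4. The group holds the adult fast heavy chains Myh1, Myh2 and Myh4, the embryonic and perinatal heavy chains Myh3 and Myh8, the slow heavy chain Myh7, the fast light chains Myl1 and Mylpf, the slow and ventricular light chains Myl2 and Myl3, and the atrial and embryonic light chain Myl4. Myh3, the heavy chain that appears early in differentiation, had signals of 20.6 in DGKzeta, 14.4 in EGFP and 20.4 in untreated cells. Myl4 was the nearest of the 11 to the floor, with 66.4 in DGKzeta, 52.4 in EGFP and 48.3 in untreated cells. No thick filament gene reached the floor on any of the 3 arrays.

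The thin filament group held 2 measured genes among 9. Tnnt2, the cardiac troponin T that anchors the troponin complex to tropomyosin, had signals of 1535 in DGKzeta, 1364 in EGFP and 1176 in untreated cells by its brightest probe set. On the log2 scale DGKzeta cells stood 0.17 above EGFP and 0.38 above untreated cells. Its other probe set, also above the floor on all 3 arrays, had 1116 in DGKzeta, 1192 in EGFP and 1142 in untreated cells, giving -0.09 to EGFP and -0.03 to untreated on that scale. The probe sets thus ordered the arrays differently, and Tnnt2 has no settled direction. Acta1, the skeletal alpha-actin, had signals of 96.9 in DGKzeta, 144 in EGFP and 146 in untreated cells. It lay just under the floor in DGKzeta cells and just above it in the controls. As deposited, Acta1 was thus at least 1.35-fold lower than in EGFP cells and at least 1.36-fold lower than in untreated cells. On the log2 scale the bound to EGFP was -0.43, but the ratio was -0.24 with quantile normalization. It was -0.21 with array medians set equal over all named probe sets, and 0 with a floor at the 75th percentile. Against untreated cells the bound of -0.45 became a ratio of -0.33 under both of these scalings.

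The other thin filament genes stayed under the floor. Tnnc1, the slow and cardiac troponin C that binds calcium, was the nearest to it, with 81.5 in DGKzeta, 87.5 in EGFP and 89.8 in untreated cells. Actc1, the cardiac alpha-actin, had 20.5 in DGKzeta, 43.7 in EGFP and 34.1 in untreated cells. The fast troponins Tnnc2, Tnni2 and Tnnt3 and the slow troponins Tnni1 and Tnnt1 had signals of at most 32.5 on any array. Tnnt2 was thus the 1 gene among 7 troponin genes that was measured.

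Among Z-disc, M-band and scaffold genes, desmin was the 1 of 7 above the floor and had the lowest ratio of the measured muscle genes. Des encodes the intermediate filament protein that links neighbouring Z-discs and is made before sarcomeres assemble. Signals of the brightest Des probe set were 479 in DGKzeta, 932 in EGFP and 795 in untreated cells. DGKzeta cells were thus 1.95-fold lower than EGFP cells (log2 ratio -0.96) and 1.66-fold lower than untreated cells (-0.73), short of the 2-fold size in both comparisons. Of 6542 genes measured on both arrays, 205 (3.13%) had a ratio to EGFP as low, and 350 of 6461 (5.42%) had a ratio to untreated cells as low. The other Des probe set lay under the floor, with 34.4 in DGKzeta, 14.9 in EGFP and 35.2 in untreated cells, and with the mean over both probe sets the ratio to EGFP was 0.13. The low Des signal therefore rests on 1 probe set. The ratio of the 3' to the 5' control probe set of Actb, a measure of how far labelled RNA extends, was 2.55 on the DGKzeta array, 1.43 on the EGFP array and 1.27 on the untreated array, and its part in the Des signal was not tested. For Gapdh the same ratio was 0.931, 0.902 and 0.841 in this order.

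The 6 other genes of that group were under the floor on every array, with signals between 0.918 and 54.1 over 7 probe sets. They are Actn2 and Actn3, the sarcomeric alpha-actinins that cross-link actin at the Z-disc, Ttn, the giant spring protein titin, Tcap, which caps titin at the Z-disc, and Myom1 and Myom2, the myomesins of the M-band. Actn3 had 50.3 in DGKzeta, 54.1 in EGFP and 26.7 in untreated cells. Tcap had 47.7 in DGKzeta, 27.0 in EGFP and 27.4 in untreated cells, and neither can be ordered under the floor.

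The muscle acetylcholine receptor was split between measured and unmeasured subunits. This receptor receives the motor nerve's signal, and in embryonic and denervated muscle it is built of alpha, beta, gamma and delta subunits. Chrna1, the alpha subunit that carries the ligand binding site, had signals of 1031 in DGKzeta, 886 in EGFP and 1072 in untreated cells. Chrnb1, the beta subunit, had 526 in DGKzeta, 416 in EGFP and 457 in untreated cells. Both were thus slightly above EGFP cells, by log2 ratios of 0.22 and 0.34. Against untreated cells Chrna1 was at -0.06 and Chrnb1 at 0.20, and the sign of Chrna1 turned to 0.21 when all named probe sets were given equal medians and to 0.04 when those above the floor were. Across 2251 genes, the gap between their 2 brightest probe sets put the SD of one probe set's log2 ratio at 0.40 for DGKzeta to EGFP and 0.50 for DGKzeta to untreated, so these differences were smaller than the spread between probe sets of one gene.

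The gamma and delta subunits were under the floor. The brightest of 3 Chrng probe sets had 25.3 in DGKzeta, 4.18 in EGFP and 3.16 in untreated cells, and Chrnd had 4.64 in DGKzeta, 16.4 in EGFP and 3.70 in untreated cells. The adult epsilon subunit gene Chrne, not on the list of 45, had at most 1.42. Rapsn, which clusters the receptor at the synapse, was measured in all groups, at 708 in DGKzeta, 794 in EGFP and 711 in untreated cells. Musk, the receptor kinase that organises the synapse, was under the floor at 30.6 in DGKzeta, 54.1 in EGFP and 4.63 in untreated cells.

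**Figure D2:**
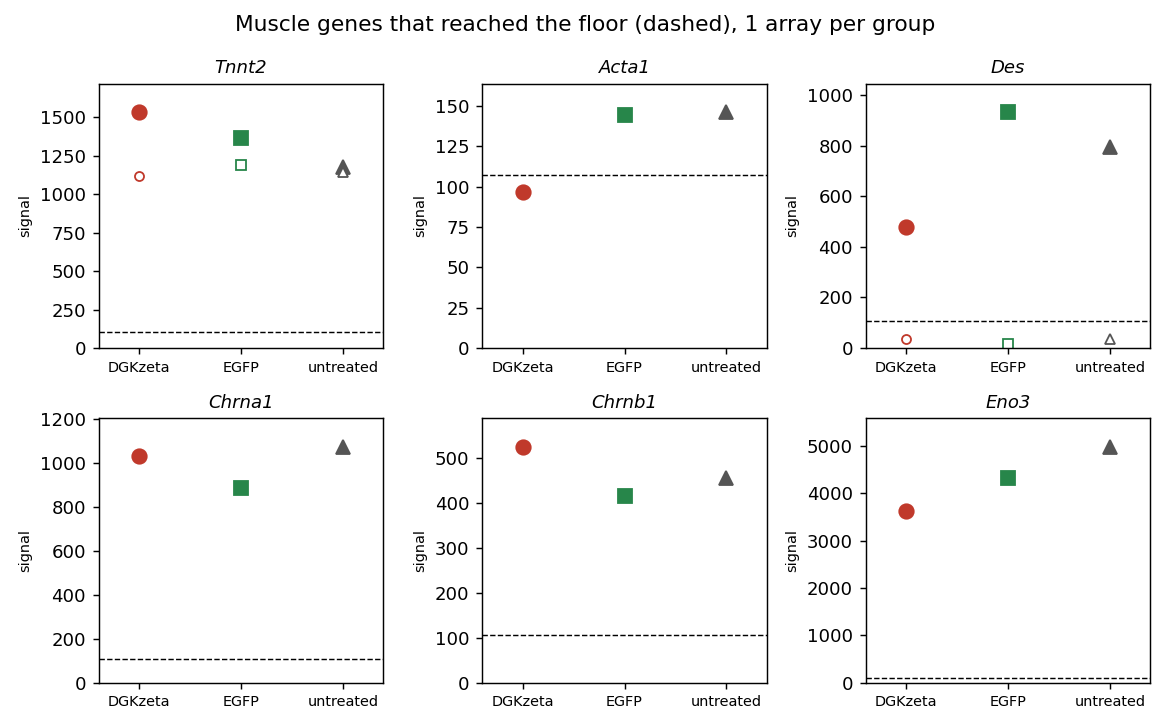
Signal (vertical linear axis from 0) of each probe set of the 6 muscle genes that reached the floor, in DGKzeta, EGFP and untreated cells (1 array each). Filled symbols are the brightest probe set, open symbols the other one, and the dashed line is the floor of 107. Des stands at 479 in DGKzeta cells, against 932 in EGFP and 795 in untreated cells.

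Genes of calcium handling and of the membrane complex had no measured member. Ryr1, the calcium release channel, Atp2a1, the pump that returns calcium to the store, and Casq1 and Casq2, which hold calcium inside it, had signals of at most 36.8. Atp2a1 was the steadiest, with 32.6 in DGKzeta, 33.4 in EGFP and 36.8 in untreated cells. Dmd, which encodes dystrophin, Sgca, a sarcoglycan of the dystrophin complex, and Cav3, the muscle caveolin, had at most 23.5 on any array over 5 probe sets.

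In energy metabolism Eno3 was measured and its 4 companions were not. Eno3, the muscle enolase of glycolysis, had signals of 3624 in DGKzeta, 4314 in EGFP and 4978 in untreated cells. The log2 ratio was -0.46 against untreated cells, and -0.25 against EGFP as deposited but 0.11 after array medians were set equal over all named probe sets. These ratios are within the SD of a single probe set. Ckm and Ckmt2, the muscle creatine kinases, Mb, which encodes myoglobin, and Pygm, the muscle glycogen phosphorylase, had at most 29.5 over 5 probe sets. Ckm, a late marker of fused muscle, had 6.31 in DGKzeta, 11.0 in EGFP and 12.6 in untreated cells.

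Promoter sequences are shown for genes that share a role and fell on different sides of the floor, the alpha-actins and the acetylcholine receptor subunits, and for Des. Each is the 250 bases before the transcript start, 5' to 3' on the gene's strand, from RefSeq on GRCm38.p6. Capitals mark E-boxes (CANNTG), MCAT elements (CATTCC, the site of TEAD factors) and the CArG box of SRF, found by their letters on either strand. Acta1, Chrna1, Chrnb1 and Des were measured, and Actc1 and Chrng were not.
Acta1 (chr8:123894776-123895025, minus strand): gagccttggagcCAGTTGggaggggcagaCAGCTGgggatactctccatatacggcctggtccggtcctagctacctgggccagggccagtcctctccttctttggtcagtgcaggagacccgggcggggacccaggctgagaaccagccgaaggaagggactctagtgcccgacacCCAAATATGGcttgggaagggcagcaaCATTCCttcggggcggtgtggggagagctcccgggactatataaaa
Actc1 (chr2:114052876-114053125, minus strand): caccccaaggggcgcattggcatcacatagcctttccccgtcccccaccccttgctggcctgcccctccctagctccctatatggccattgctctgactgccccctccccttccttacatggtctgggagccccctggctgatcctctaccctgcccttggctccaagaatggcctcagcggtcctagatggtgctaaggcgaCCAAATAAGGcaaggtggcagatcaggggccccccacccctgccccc
Chrna1 (chr2:73580339-73580588, minus strand): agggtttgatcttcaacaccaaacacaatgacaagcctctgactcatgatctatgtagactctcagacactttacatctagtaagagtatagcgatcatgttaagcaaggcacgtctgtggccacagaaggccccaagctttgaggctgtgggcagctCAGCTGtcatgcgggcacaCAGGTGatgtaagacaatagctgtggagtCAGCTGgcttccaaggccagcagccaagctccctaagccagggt
Chrnb1 (chr11:69795938-69796187, minus strand): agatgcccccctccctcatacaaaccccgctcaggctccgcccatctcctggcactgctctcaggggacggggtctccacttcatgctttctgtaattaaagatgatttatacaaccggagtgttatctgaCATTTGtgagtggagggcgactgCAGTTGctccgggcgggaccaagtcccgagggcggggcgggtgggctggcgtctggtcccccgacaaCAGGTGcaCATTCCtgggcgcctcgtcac
Chrng (chr1:87205561-87205810, plus strand): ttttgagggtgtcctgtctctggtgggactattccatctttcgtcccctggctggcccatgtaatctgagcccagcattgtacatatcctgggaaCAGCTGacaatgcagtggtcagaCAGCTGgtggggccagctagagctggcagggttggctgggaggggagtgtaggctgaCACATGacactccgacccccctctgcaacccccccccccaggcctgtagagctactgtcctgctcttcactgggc
Des (chr1:75360042-75360291, plus strand): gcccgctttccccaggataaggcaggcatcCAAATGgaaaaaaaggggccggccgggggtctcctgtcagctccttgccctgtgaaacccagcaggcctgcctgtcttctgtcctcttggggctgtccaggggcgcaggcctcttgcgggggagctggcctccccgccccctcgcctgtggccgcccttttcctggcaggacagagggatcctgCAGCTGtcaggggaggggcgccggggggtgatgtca

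Matches stood in promoters of measured and of unmeasured muscle genes. Chrna1 and Chrng both hold 3 E-boxes, 2 of them CAGCTG, yet Chrna1 had a signal of 1072 in untreated cells and Chrng was under the floor. The Chrnb1 window also holds 3 E-boxes, none of them of that kind. The promoters of Acta1 and Actc1 both hold 1 CArG box, at base -73 and -47 from the start, while Acta1 also holds 2 E-boxes and Actc1 none. RefSeq promoters were found for 38 of the 45 genes. All 7 promoters of the 6 measured genes and 31 of 37 promoters of unmeasured ones (83.8%) hold CANNTG, which 66.2% of all 32851 promoters hold. CAGCTG, counted within CANNTG, was in 4 of 7 and 15 of 37 (40.5%), beside 13.0% of all promoters. CATTCC was in 4 of 7 and 6 of 37 (16.2%), beside 12.6% of all, the CArG box in 1 of 7 and 5 of 37 (13.5%), beside 1.47%, and the MEF2 box in 0 of 7 and 6 of 37 (16.2%), beside 2.92%. Matches of the other motifs did not overlap each other in these promoters. A match is a run of letters and not a shown binding site.

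None of the 43 genes was 2-fold apart in any of the 3 comparisons once signals under the floor were set to it. Against EGFP, 0 of 43 genes were higher and 0 lower by 2-fold or more in DGKzeta cells, where 0.194% and 1.59% of all genes were. Against untreated cells the counts were again 0 and 0, beside 0.742% and 1.55% of all genes. EGFP over untreated cells gave 0 higher and 0 lower, beside 0.202% and 0.169% of all genes. At such shares fewer than 1 of 43 genes would be past the size in each direction. However, 37 of the 43 genes, and 43.6% of all genes, lay under the floor on all 3 arrays, which fixes their ratio at 0. Only the other 6 could be counted, so the counts of 0 were largely set by the floor and cannot be compared with the background. At a size of 1.5-fold, Des alone was lower in DGKzeta cells, in both comparisons, a size that 6.5% of all genes passed against EGFP and 5.5% against untreated cells.

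The measured genes did not lean in 1 direction. Over the 5 muscle genes measured on both arrays, the median log2 ratio of DGKzeta to EGFP was 0.17, with 3 above 0, and that of all 6542 genes measured on both was -0.01. With quantile normalization it was -0.062 over 6 genes, beside 0.055 over all genes measured on both. With array medians set equal over all named probe sets it was 0.32 over 6, beside 0.35 over all such genes. Against untreated cells the median of the 5 genes was -0.06, with 2 above 0, beside -0.01 over 6461 genes. Quantile normalization put it at -0.19, beside 0.05 over all genes measured on both. Medians made equal over probe sets above the floor put it at 0.04, beside 0.08. For EGFP over untreated the median of 6 genes was -0.08, with 2 above 0, beside 0.02 over 6613 genes. In that comparison the 6 ratios lay between -0.28 for Chrna1 and 0.23 for Des, where one probe set's SD was 0.27. Equal medians over all named probe sets add 0.36 to the log2 ratio of DGKzeta to EGFP for genes above the floor on both arrays, 0.26 to that of DGKzeta to untreated and -0.10 to that of EGFP to untreated, so small ratios have no fixed sign. That rescaling also turns the 2-fold counts over all genes, to 164 higher and 51 lower against EGFP in place of 24 and 197, and to 253 and 96 against untreated cells in place of 92 and 192. Quantile normalization gave 51 and 106 against EGFP and 130 and 135 against untreated cells, and the count of muscle genes stayed 0 under both.

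**Figure D3:**
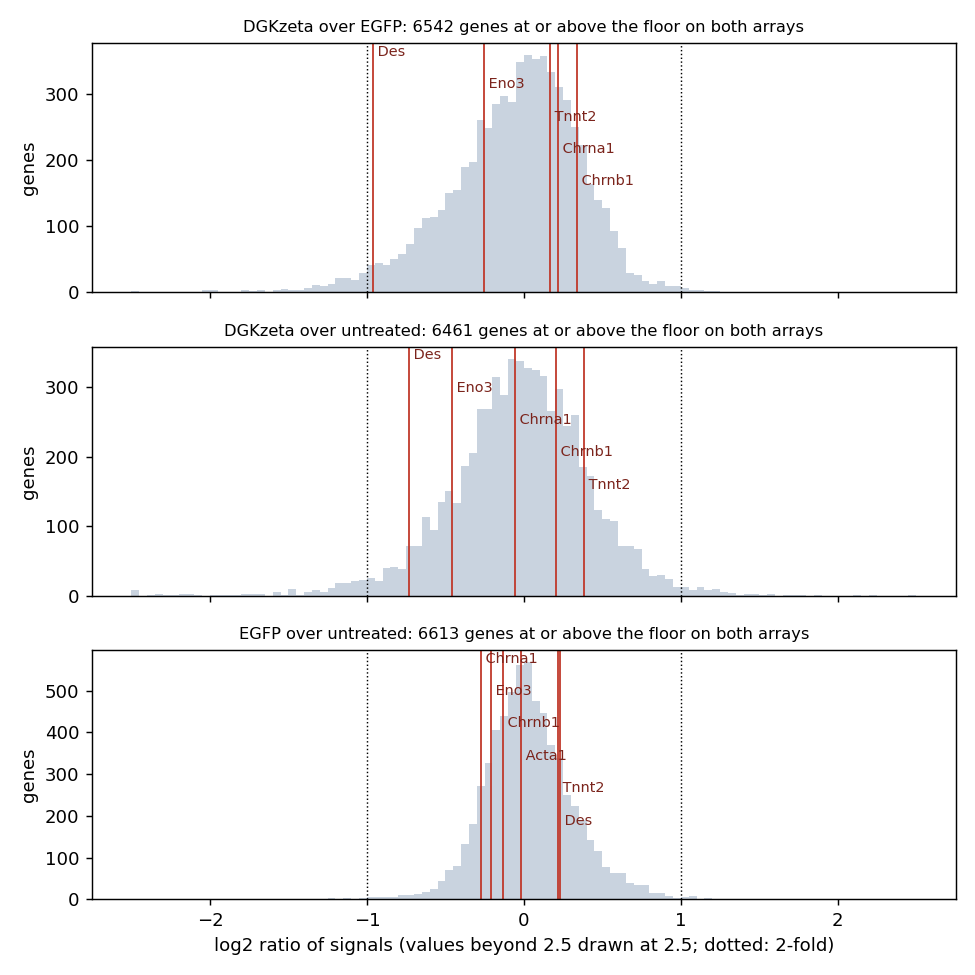
Number of genes (vertical axes) by log2 ratio of signals (horizontal axis) for DGKzeta over EGFP, DGKzeta over untreated and EGFP over untreated, over genes measured on both arrays. Red lines mark the muscle genes measured there and dotted lines a 2-fold difference. Des at -0.96 lies nearest to the dotted line.

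Signals under the floor moved widely between arrays, in muscle genes and in other genes alike. Taken without a floor, 17 of the 37 unmeasured muscle genes (45.9%) differed at least 2-fold between DGKzeta and EGFP cells, beside 43.1% of all 5405 genes under the floor on every array and 2.91% of the 6434 genes measured on all 3. The median absolute log2 ratio was 0.89 in these 37 genes, 0.83 in all unmeasured genes and 0.26 in the measured ones. Myh8 had the widest gap, with signals of 0.635 in DGKzeta, 15.0 in EGFP and 1.63 in untreated cells. Mb gave the widest gap to untreated cells, with 23.4 in DGKzeta, 2.36 in EGFP and 1.41 in untreated cells. In 16 of 37 such genes (43.2%) EGFP and untreated cells, which differ by transfection and not by the kinase, were at least 2-fold apart. Of all 5405 genes under the floor, 44.4% were. These ratios give no order between groups.

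**Figure D4:**
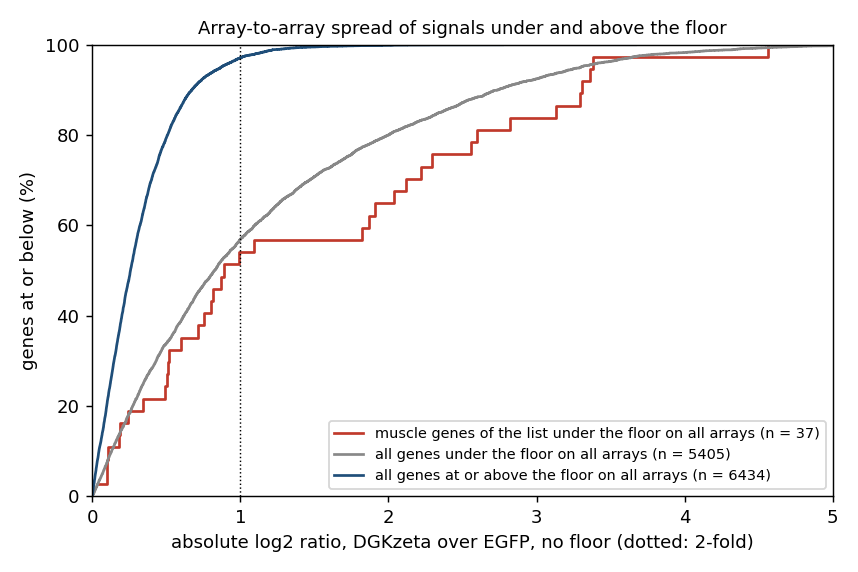
Cumulative share of genes (vertical axis, percent) by absolute log2 ratio of DGKzeta to EGFP without a floor (horizontal axis), for 37 muscle genes and 5405 genes under the floor on all arrays and 6434 genes at or above it on all arrays. The dotted line is 2-fold, which 45.9%, 43.1% and 2.91% of the genes passed.

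A list of filament partners mixed genes of striated muscle with genes of wider use. Of 34 with a probe set, 14 reached the floor (41.2%, beside 56.4% of all genes), and the median log2 ratio of DGKzeta to EGFP over 12 was -0.02. With array medians set equal over all named probe sets it was 0.32 over 13, beside 0.35 over all genes measured on both arrays. The tropomyosins, which lie along actin and set where myosin can bind, were all measured: Tpm1 was at -0.17, Tpm2 at 0.01, Tpm3 at -0.33 and Tpm4 at -0.04 against EGFP by the brightest probe set. Other measured probe sets gave -0.57 for Tpm2 and -0.54 and 0.75 for Tpm3, so their direction was not settled. In 3 genes the ratio to EGFP passed 2-fold, each with 1 probe set, 1 of them higher and 2 lower. Of all genes, 0.194% were higher and 1.59% lower by that size. The part of the 3' to 5' ratio of Actb, 2.55 on the DGKzeta array, in these signals was not tested. Palld, an actin-bundling protein of stress fibres and Z-discs, had 104 in DGKzeta, 466 in EGFP and 629 in untreated cells, at least 4.35-fold lower than EGFP. Flnc, the muscle filamin that cross-links actin, had 226 in DGKzeta, 626 in EGFP and 1031 in untreated cells, 2.77-fold below EGFP. Tmod1, which caps the slow-growing end of the thin filament, had 442 in DGKzeta, 78.4 in EGFP and 140 in untreated cells, at least 4.12-fold above EGFP and 3.16-fold above untreated cells. The DGKzeta signal was the lowest for Palld and Flnc and the highest for Tmod1. These partners include no myosin or troponin measured here: Tnni3, Myh6 and Mybpc3 were under the floor.

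The synapse and dystrophin list had 18 measured genes of 28 (64.3%, beside 56.4% of all genes). Its median log2 ratio was 0.20 to EGFP over 16 genes and 0.02 to untreated cells. Ncam1, the neural cell adhesion molecule of myoblasts and synapses, had 186 in DGKzeta, 459 in EGFP and 428 in untreated cells by its brightest probe set, at -1.31 against EGFP and -1.20 against untreated cells, but its other measured probe set gave -0.25 and 0.23, and after the rescaling by all named probe sets 0 genes of this list were 2-fold lower than in EGFP cells. Dtna, a dystrobrevin of the dystrophin complex, was at least 2.02-fold lower in DGKzeta than in untreated cells, and Sntb2, a syntrophin, at least 2.96-fold lower. Another Dtna probe set had 117 in DGKzeta and 117 in untreated cells, and one more, under the floor in DGKzeta cells, gave -0.83. The list had 3 genes 2-fold lower than in untreated cells as deposited, where 1.55% of all genes were. It had 2 with quantile normalization, 1 when medians were set equal over all named probe sets and 2 when over those above the floor. Sntb2 at -1.21 and Syne1, a nuclear envelope protein, at -1.02 were lower in EGFP than in untreated cells too, as were 0.169% of all genes by 2-fold or more. Utrn, which encodes a homologue of dystrophin, was measured where Dmd was not, with 871 in DGKzeta, 759 in EGFP and 873 in untreated cells.

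Genes of calcium release and of muscle energy supply had none past 2-fold in any comparison as deposited. After setting array medians equal over all named probe sets, 1 metabolic gene was 2-fold higher in DGKzeta than in untreated cells, as were 253 of all 12393 genes. The synapse, chaperone and myogenic lists then had 1 such gene each too. Of 21 calcium genes 5 were measured (23.8%, beside 56.4% of all genes), Cacng1, Calr, Fkbp1a, Atp2a2 and Asph, with a median of 0.06 against EGFP. Atp2a2, the calcium pump of slow muscle and most other cells, had 4644 in DGKzeta, 3786 in EGFP and 4217 in untreated cells by its brightest probe set, at 0.29 to EGFP, and 3 other probe sets gave -0.13, -0.46 and -0.03. By contrast the fast muscle pump Atp2a1 was under the floor. Of 20 metabolic genes 12 were measured (60%), with a median of -0.04. Gys1, the glycogen synthase of muscle, was the lowest at -0.66 and Slc2a1, the glucose transporter, the highest at 0.53 by its brightest probe set, with 0.15 and -0.71 by the others. Of 31 myogenic regulators 19 were measured (61.3%), with a median of -0.13 against EGFP and -0.23 against untreated cells. That same rescaling gave 0.24 and 0.04, beside 0.35 and 0.25 over all genes measured on both arrays. Myf5 was the highest at 0.73 against EGFP, and Igf1r and Six4 were 2-fold lower than in untreated cells, at -1.07 and -1.39, though the list had 1 such gene in place of 2 with each of the 3 other scalings. Of all genes, 1.55% were as much lower than in untreated cells as deposited. No gene of this list was 2-fold higher in DGKzeta cells as deposited. With medians set equal over all named probe sets 1 was, both against EGFP and against untreated cells, beside 164 and 253 of all 12393 genes. With medians set equal over those above the floor 1 was, against untreated cells, beside 125 of all genes.

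**Figure D5:**
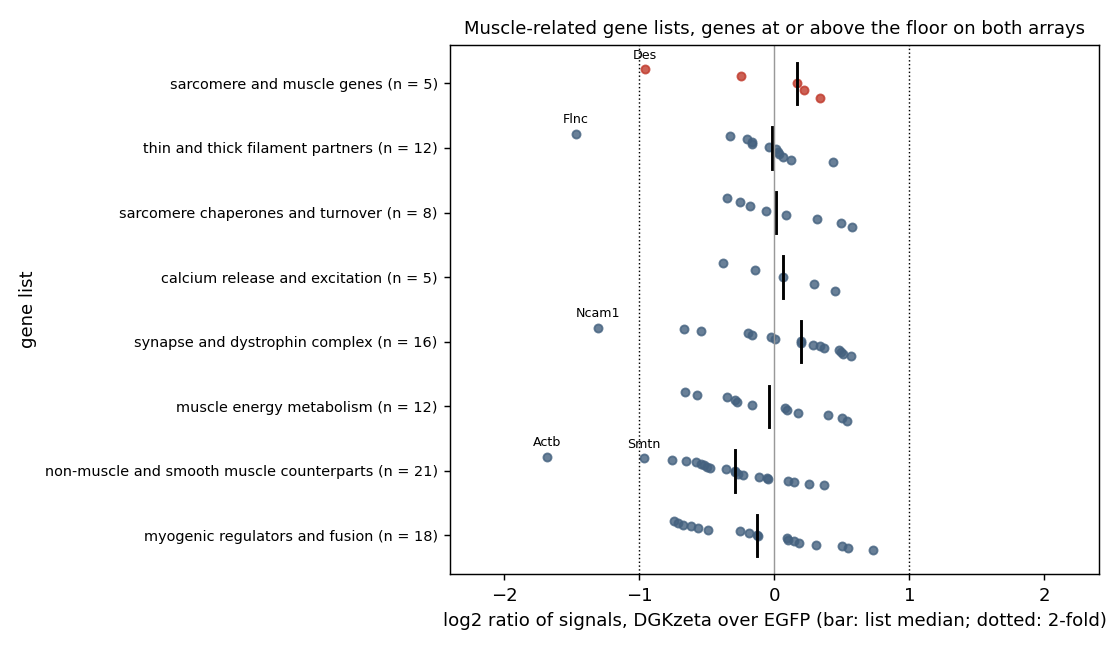
Log2 ratio of DGKzeta to EGFP (horizontal axis) of the genes measured on both arrays in the sarcomere and muscle list and in 7 further lists (vertical axis), 1 point per gene, with the list median as a bar. Dotted lines are 2-fold, which Flnc, Ncam1 and Actb passed. Palld and Tmod1, each under the floor on 1 of both arrays, are not drawn.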

How the data were processed

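The authors deposited 1 linear intensity per probe set and array. MAS5 made these values, per the submitters' processing notes. Its version and scaling target, detection calls and the genome build were not given in the sources used here. Trimmed means were 499.9 or 500.0 on each array, so a scaling per array preceded deposit, and no other was applied. MAS5 weighs the probes of a set into 1 value, and probes near the 3' end of a transcript are read more fully when labelled RNA is short.

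Of 22690 probe sets, 64 are controls, 20380 have 1 symbol, 691 several and 1555 none; the platform annotation named them, and 20351 were found by gene ID in RefSeq (GRCm38.p6). Signals under the floor (50th percentile of all values) were set to it before log2. A gene was represented by its brightest probe set. With 1 array per group no test was run: ratios of at least 2-fold were counted beside the share of all genes. Named were all members that reached the floor, and from the further lists every gene past 2-fold plus some of up to 3 extremes at each end, with others as examples chosen after their values were seen. The members and lists were chosen with earlier results of these data known. Alternatives were 3 scalings, a floor at the 25th or at the 75th percentile, none at all, 3.17 added to each signal in its place, 3 other choices of probe set, and rules of 1.5-fold and 3-fold. The counting was tested on simulated data with large ratios planted in genes far above the floor and with little noise. That test does not cover genes near or under the floor. Python 3.11.15, numpy 2.4.6, pandas 2.3.3 and matplotlib 3.10.9 were used.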

Additional observations from a re-analysis of the deposited data

How the results depend on the processing

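Counts of muscle genes at least 2-fold apart depended on how signals under the floor were treated. They were 0 in each comparison as reported, with the 3 other scalings, with a floor at the 75th percentile, with each other choice of probe set and with a 3-fold rule. With a floor at the 25th percentile (15.2) they were 3 for DGKzeta against EGFP, 2 for DGKzeta against untreated and 4 for EGFP against untreated, and 30 of 43 genes then reached the floor on at least 1 array, in place of 6. Without a floor they were 17, 14 and 16, and with 3.17 added to every signal instead of a floor 16, 10 and 12. These added genes lie under the floor as reported. Without a floor, 45.9%, 37.8% and 43.2% of the 37 muscle genes under it were 2-fold apart, near the 43.1%, 43.4% and 44.4% of all such genes. The share of all genes was not counted with the floor at the 25th percentile or with 3.17 added, so those counts have no background beside them. A 1.5-fold rule counted 1 gene, Des, in each comparison of DGKzeta. The median log2 ratio of DGKzeta to EGFP was -0.062 with quantile normalization, in place of 0.17, with 6 genes in place of 5. The other medians moved by less than the SD of a single probe set divided by the square root of the number of genes. Of 180 alternative values for single measured genes, 177 moved by less than that SD. The exceptions were Acta1, at 0 against EGFP under a floor at the 75th percentile, and Des with the mean over its probe sets, at 0.13 for DGKzeta over EGFP and -0.51 for EGFP over untreated. No paired analysis was possible because each group had 1 array. Signal over background limits these data: in the 37 genes under the floor on all arrays, differences that stayed under it were not detectable.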

Other observations

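Non-muscle and smooth muscle counterparts of the sarcomere proteins were measured far more often than the muscle forms. The counts were 21 of 26 genes (80.8%) against 6 of 43 (14.0%), beside 56.4% of all genes. Their median log2 ratio of DGKzeta to EGFP was -0.29 over 21 genes, with 4 above 0, beside -0.01 over all genes measured on both arrays. With array medians set equal over the named probe sets it was 0.04 over 20 genes, beside 0.35 over all genes measured on both. Actb, the cytoplasmic actin, had 5108 in DGKzeta, 16453 in EGFP and 17775 in untreated cells by its brightest probe set, at -1.69, and 325 in DGKzeta and 191 in EGFP cells by another, at 0.76. Actg1, the other cytoplasmic actin, had 16202 in DGKzeta, 17500.4 in EGFP and 18539 in untreated cells, a ratio of -0.11 to EGFP. Acta2, the smooth muscle alpha-actin, was at -0.29 by its brightest probe set, with 8802 in DGKzeta, 10762 in EGFP and 9941 in untreated cells. Its other probe set lay under the floor on every array. Smtn, a smooth muscle cytoskeletal protein, was at -0.97 and Cnn2, a calponin, at -0.76. Myh9, the non-muscle myosin heavy chain, had 10579 in DGKzeta, 8207 in EGFP and 8855 in untreated cells by its brightest probe set, at 0.37. Its 3 other probe sets gave -2.76, -1.23 and, as a bound, -1.91 against EGFP, so its direction was not settled. The intermediate filament genes Vim and Nes were at -0.23 and -0.52, beside Des at -0.96.

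Chaperones that fold or protect sarcomere proteins had no gene past 2-fold by its brightest probe set as deposited. Of 14 genes 9 were measured (64.3%, beside 56.4% of all genes), with a median of 0.01 against EGFP and 0.34 against untreated cells over 8. After the same rescaling the medians were 0.37 and 0.60, beside 0.35 and 0.25 over all genes measured on both arrays. Cryab, the small heat shock protein that guards desmin, had 6504 in DGKzeta, 4359 in EGFP and 3622 in untreated cells by its brightest probe set, at 0.58 and 0.84. Another measured Cryab probe set gave -0.24 against both, so its direction was not settled. The 3 probe sets of Hsp90aa1 disagreed likewise, at 0.31, 0.02 and -0.50 against EGFP and 0.49, 0.03 and -1.24 against untreated cells. Unc45a, a myosin chaperone of many tissues, had 180 in DGKzeta, 128 in EGFP and 121 in untreated cells by its brightest probe set, but 85.0 in DGKzeta, 164 in EGFP and 184 in untreated cells by the other.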
